A study of Mus musculus with 7 samples.

Results

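The genes described are 38 that act in DNA replication and in the repair of replicated DNA, listed by name and measured on mouse expression arrays. Of these, 37 had a probe set that names a single gene, and they were followed among 19938 genes measured in the same way; Xrcc2, a recombination gene, was not analysed here. By textbook function 11 of the 37 license replication origins, 11 fire origins or work at the fork, 2 repair mismatches, 7 act in homologous recombination, 4 belong to the Fanconi anaemia pathway and 2 join DNA ends. Xrcc5 and Xrcc6 encode the Ku subunits of non-homologous end joining and are therefore not homologous repair genes, so that the end joining pair is described apart from the rest.

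RNA came from 7 cultures, each on 1 array. Mouse embryonic fibroblasts (MEFs), taken at 13.5 dpc from mice of the 129/OG2 background, were grown in FBS for 1 array and in a medium named iCD1 for another. Lines O4-1, O4-2 and O4-4 of induced pluripotent stem (iPS) cells, which arose from MEFs given Oct4, were each measured in KSR (3 arrays). O4-1 was measured again in N2B27 plus 2i, that is, inhibitors of MEK and GSK3. The last array held OG2 embryonic stem (ES) cells, likewise in N2B27 plus 2i. No MEF array was in KSR or 2i and no pluripotent array was in FBS, so cell type and medium cannot be told apart in any comparison with MEFs, and each iPS line stands for a single derivation. Whether cultures were grown separately is not stated in the labels, so p-values measure only the spread between these samples.

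Before S phase the origin recognition complex, CDC6 and CDT1 load the MCM helicase onto DNA, which licenses an origin, and geminin binds CDT1 to stop further loading. CDC45 and the GINS complex then turn the helicase on, polymerases alpha and epsilon start and extend DNA, and PCNA, loaded by replication factor C, holds the machinery on the template. Mismatch repair corrects copying errors, and homologous recombination together with the Fanconi anaemia proteins mends breaks and crosslinks at the fork. Mouse pluripotent stem cells are known for short cell cycles with a large share of cells in S phase, and many of these genes are known targets of E2F transcription factors.

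The promoter sequences of 6 members are shown because 5 of them carry an E2F word and because they include the 3 genes with the largest differences from MEFs described below (Orc1, Msh6 and Mcm10). They are RefSeq sequences of build GRCm38.p6, 5′ to 3′ on the strand of the gene, from 170 bases before the start of transcription to 30 bases after it. Capitals mark E2F words (TTTGGCGC, TTTCCCGC, TTTGCCGC or TTTCGCGC) and CCAAT boxes (CCAAT), on either strand. The Orc1 stretch is chr4:108579284-108579483 on the plus strand, Mcm5 chr8:75109339-75109538 plus, Mcm6 chr1:128359676-128359875 minus, Mcm7 chr5:138171854-138172053 minus, Msh6 chr17:87974880-87975079 plus and Mcm10 chr2:5012762-5012961 minus.
Orc1: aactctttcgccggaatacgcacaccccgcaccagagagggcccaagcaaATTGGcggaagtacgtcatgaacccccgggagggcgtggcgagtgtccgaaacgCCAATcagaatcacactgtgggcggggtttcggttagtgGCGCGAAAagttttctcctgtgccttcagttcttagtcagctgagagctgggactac
Mcm5: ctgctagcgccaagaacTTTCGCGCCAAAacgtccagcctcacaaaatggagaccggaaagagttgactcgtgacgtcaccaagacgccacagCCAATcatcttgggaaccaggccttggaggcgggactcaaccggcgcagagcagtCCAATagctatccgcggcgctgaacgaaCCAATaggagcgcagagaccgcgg
Mcm6: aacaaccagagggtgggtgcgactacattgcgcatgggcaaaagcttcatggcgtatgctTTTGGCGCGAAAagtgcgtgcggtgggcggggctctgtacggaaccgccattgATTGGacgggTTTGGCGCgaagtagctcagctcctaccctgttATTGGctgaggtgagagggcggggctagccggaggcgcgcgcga
Mcm7: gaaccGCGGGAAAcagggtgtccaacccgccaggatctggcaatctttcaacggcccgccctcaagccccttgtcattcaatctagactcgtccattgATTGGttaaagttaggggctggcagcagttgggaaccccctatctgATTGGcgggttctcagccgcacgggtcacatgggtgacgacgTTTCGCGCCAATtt
Msh6: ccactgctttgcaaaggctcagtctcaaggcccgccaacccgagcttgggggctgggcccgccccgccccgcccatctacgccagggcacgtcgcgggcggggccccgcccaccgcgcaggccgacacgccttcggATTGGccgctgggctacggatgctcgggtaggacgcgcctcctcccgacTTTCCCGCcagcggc
Mcm10: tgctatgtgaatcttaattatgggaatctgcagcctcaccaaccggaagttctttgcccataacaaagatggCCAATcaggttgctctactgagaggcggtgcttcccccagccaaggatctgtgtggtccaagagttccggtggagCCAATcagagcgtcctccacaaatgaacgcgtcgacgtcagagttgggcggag

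In the Orc1 promoter the E2F word begins 27 bases before the start, downstream of a pair of CCAAT boxes. Mcm5 and Mcm6 each hold overlapping E2F words that read on opposite strands, 153 and 110 bases before the start, and Mcm6 has a further word 47 bases before it. In Mcm7 the E2F word that begins 16 bases after the start shares bases with a CCAAT box, the single such overlap among the members; another annotated start of Mcm7 has a window with a CCAAT box and no E2F word. Msh6 has its E2F word 15 bases after the start, and in Mcm10 the capitals are CCAAT boxes alone, since no E2F word lay in its window.

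A 300-base window (250 bases before to 50 after the start) was at hand for 29 of the 37 members. An E2F word lay in the window of 13 of these 29 (44.8%), namely Bard1, Brca2, Cdc6, Cdt1, Mcm3, Mcm5, Mcm6, Mcm7, Msh6, Orc1, Pola1, Rfc3 and Xrcc6, against 3.48% of 15614 measured genes with a window. Licensing genes held 7 of the 13, from 9 with a window, whereas 2 of 8 firing and fork genes and 2 of 6 recombination genes had a word. A CCAAT box lay in the windows of 22 of 29 members (75.9%), against 41.7% of measured genes. The median GC content was 57.3% in both sets. Among 35 other replication genes with a window 9 held an E2F word (25.7%) and 14 a CCAAT box (40.0%), and among 12 mitosis genes 1 held an E2F word and 11 a CCAAT box. Among 9 genes of E2F factors and their regulators 5 held an E2F word (55.6%), a larger share than among the members. These are counts of letters in a window and do not show binding, and a window without a word says only that these letters were not in it.

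**Figure D1:**
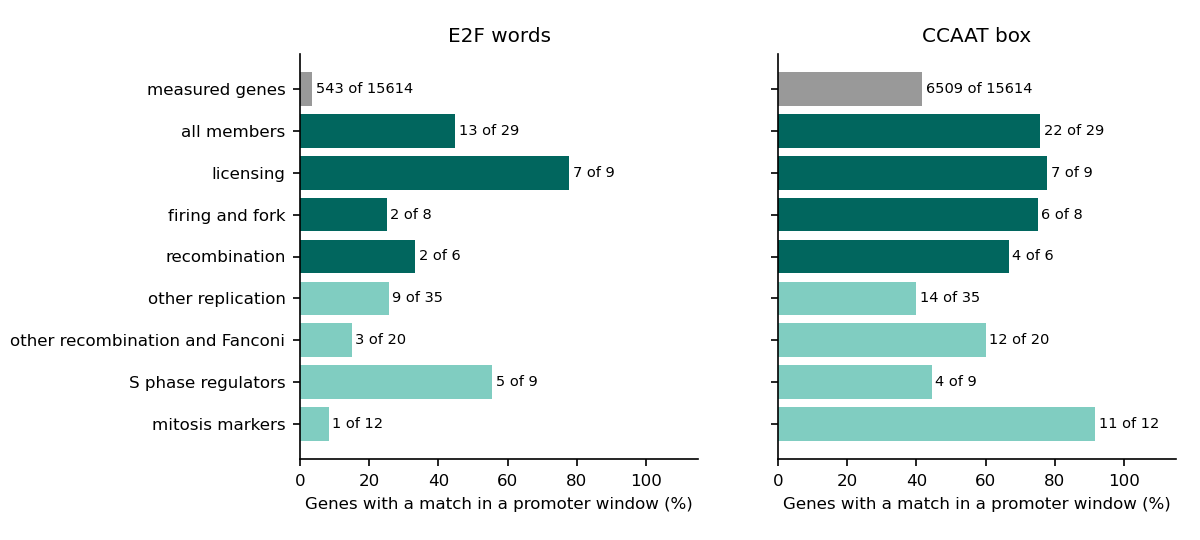
Share of genes (%) whose RefSeq promoter window holds an E2F word (left) or a CCAAT box (right), with the number of genes beside each bar, for measured genes (grey), the members and their larger classes (dark) and other gene lists (light). E2F words were in a window of 13 of 29 members against 3.48% of measured genes, and of 7 of 9 licensing genes. S phase regulators held one in 5 of 9.

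Most of the replication and repair genes were higher in each kind of pluripotent culture than in MEFs. The members were chosen with earlier results of these data known, so the shares of all genes beside them are a description and no test. In the iPS lines in KSR all 37 lay above the mean of both MEF arrays, 34 rose and 0 fell (limma, adjusted p under 0.05 over all genes), where 12.1% of all genes rose and 14.3% fell. The median difference of the members was 1.57 on the log2 scale, a 2.97-fold difference, against 0 for all genes, and 31 of 37 were at least 2-fold higher, where 7.43% of all genes were. In O4-1 in 2i 27 rose and 0 fell, with a median of 1.57, where 6.24% of all genes rose and 8.85% fell. In ES cells 25 rose and 0 fell, with a median of 1.54, where 5.37% of all genes rose and 7.46% fell. These comparisons share the MEF arrays, and 25 members passed in all 3 of them, 2 in KSR and O4-1 in 2i (Mcm6 and Fen1), 7 in KSR alone and 3 in none (Mcm4, Gins2 and Fancb). Each array holds a mixture of all the cells of a culture, so a larger share of cells expressing a gene and more RNA per cell cannot be told apart.

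The groups did not overlap for most members. All 5 pluripotent arrays lay above both MEF arrays for 35 of 37 genes, all except Gins2 and Fancb, where 21.9% of all genes showed this. For 33 the gap between the highest MEF array and the lowest pluripotent array was wider than the whole range of the pluripotent arrays, which held for 8.76% of all genes. The median gap was 1.29 and the median range 0.46, against a median range of 0.46 over all genes as well. Array by array, the median difference of the 37 genes from the MEF mean was 1.60 in O4-1, 1.42 in O4-2 and 1.74 in O4-4 in KSR, 1.57 in O4-1 in 2i and 1.54 in ES cells.

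The spread in limma came from the 3 KSR lines, with 2 residual degrees of freedom, and single arrays were assumed to vary like them. With O4-1 left out or with O4-2 left out limma called 0 of 37 members and 0 of all genes. Still, 33 and 35 members kept an unadjusted p under 0.05, as did 29.1% and 34.7% of all genes. With O4-4 left out limma called 24 members, all higher, where 1207 of all genes rose and 1569 fell. The counts for O4-1 in 2i and for ES cells went to 0 when any 1 of the 3 lines was left out, with 29 to 34 and 30 to 34 members at an unadjusted p under 0.05, where 25.9% to 33.7% and 24.0% to 31.6% of all genes had one. With the FBS array as the only MEF array, fewer members and fewer of all genes passed in these comparisons than with both. The median differences of the members were then 1.47 and 1.49, against 0.02 and 0 over all genes.

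**Figure D2:**
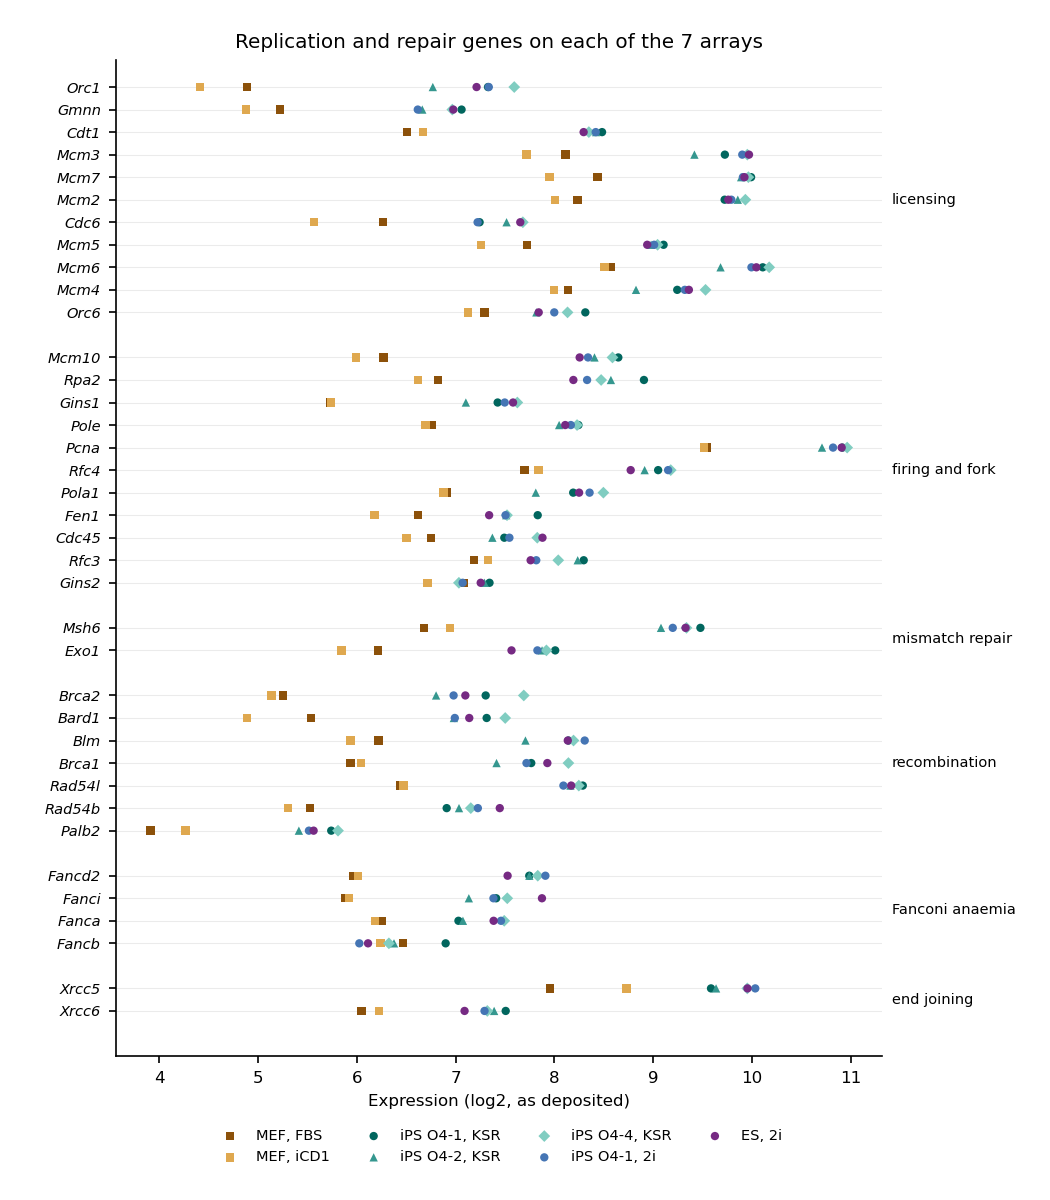
Deposited log2 expression (horizontal axis) of the 37 genes (rows, grouped by role) on each of the 7 arrays, 1 symbol per array. Both MEF arrays (squares) lie left of all 5 pluripotent arrays in 35 rows, and the exceptions are Gins2 and Fancb; levels are not comparable between rows, since each gene has its own probe set.

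Of the 11 licensing genes, 10 rose in the KSR lines, 9 in O4-1 in 2i and 8 in ES cells, with medians of 1.72, 1.57 and 1.71. Orc1, the ATPase subunit of the origin recognition complex, lay at 4.89 in MEFs in FBS and 4.41 in iCD1, at 7.33, 6.77 and 7.59 in O4-1, O4-2 and O4-4 in KSR, at 7.34 in O4-1 in 2i and at 7.21 in ES cells. All pluripotent values were thus well above both MEF values, although the KSR lines differed by up to 0.82 among themselves. Orc1 rose by 2.58 ± 0.30 (SE; 3 lines and 2 MEF arrays; adjusted p = 0.0142 in limma), a 5.98-fold difference and the largest among the members. Its MEF values lay below the median of 5.01 of both MEF arrays. Signal over background is unknown, so the size and rank of this fold difference are uncertain. Orc6, a smaller subunit of the same complex, rose by 0.88 ± 0.19 (limma, adjusted p = 0.0470), but did not pass against either MEF array alone (limma, adjusted p = 0.12 with FBS and 0.0747 with iCD1).

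The loading factors and their inhibitor rose too. Cdt1 lay at 6.51 and 6.67 in MEFs (FBS, then iCD1), at 8.48, 8.42 and 8.35 in the KSR lines, at 8.42 in O4-1 in 2i and at 8.30 in ES cells. Its pluripotent values spanned 0.19, and it rose by 1.83 ± 0.09 (limma, adjusted p = 0.00667). Cdc6 lay at 6.26 in FBS and 5.57 in iCD1. By the probe sets used, this was the most negative difference between the MEF media among the members. Cdc6 lay at 7.24, 7.52 and 7.68 in the KSR lines, at 7.22 in 2i and at 7.66 in ES cells. It rose by 1.56 ± 0.17 in the KSR lines. Gmnn, which encodes the CDT1 inhibitor geminin, rose by 1.85 ± 0.16 (limma, adjusted p = 0.00976), so that the licensing factor and its inhibitor differed from MEFs by about the same amount.

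The 6 subunits of the MCM helicase ring gave differences between 1.13 and 1.78 in the KSR lines. Mcm7 lay at 8.44 and 7.95 in MEFs (FBS, then iCD1), at 9.99, 9.89 and 9.97 in the KSR lines, at 9.91 in 2i and at 9.93 in ES cells. The 5 pluripotent arrays spanned 0.10, the narrowest range among the members, and Mcm7 rose by 1.76 ± 0.09 (limma, adjusted p = 0.00667). Mcm3 rose by 1.78 ± 0.20, Mcm2 by 1.72 ± 0.11, Mcm5 by 1.56 ± 0.09 and Mcm6 by 1.45 ± 0.20. Mcm4 lay at 8.14 and 8.0 in MEFs and at 9.25, 8.83 and 9.53 in the KSR lines, at 9.32 in 2i and at 9.36 in ES cells. Its groups did not overlap, but its difference of 1.13 ± 0.25 missed the threshold (limma, adjusted p = 0.0516). Mcm4 passed in some alternative runs, among them quantile normalization of the arrays (limma, adjusted p = 0.0184). It did not pass against either MEF array alone or with any KSR line left out. Mcm4 had a wider spread between the KSR lines (SD 0.35) than Mcm7 (SD 0.05).

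Of the 11 firing and fork genes, 10 rose in the KSR lines, 7 in O4-1 in 2i and 6 in ES cells, with medians of 1.28, 1.38 and 1.36. Mcm10, which is needed to activate the loaded helicase, lay at 6.27 and 5.99 in MEFs (FBS, then iCD1), at 8.65, 8.41 and 8.59 in the KSR lines, at 8.34 in 2i and at 8.26 in ES cells. It rose by 2.42 ± 0.12 (limma, adjusted p = 0.00659), a 5.33-fold difference and the largest of this class, and it passed in 2i (2.21 ± 0.16) and in ES cells (2.12 ± 0.16) too. Cdc45, a partner of the active helicase, rose by 0.94 ± 0.18 (limma, adjusted p = 0.0371) but did not pass against the FBS array alone (limma, adjusted p = 0.104) or the iCD1 array alone (limma, adjusted p = 0.0556).

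Gins1 and Gins2 encode subunits of the GINS complex, and the difference between them was not tested. Gins1 lay at 5.73 and 5.74 in MEFs, at 7.43, 7.10 and 7.63 in the KSR lines, at 7.50 in 2i and at 7.58 in ES cells, and it rose by 1.65 ± 0.20 (limma, adjusted p = 0.0149). Gins2, which encodes another subunit of the same complex, lay at 7.09 and 6.72 in MEFs (FBS, then iCD1), at 7.34, 7.29 and 7.03 in the KSR lines, at 7.07 in 2i and at 7.26 in ES cells. The FBS array of Gins2 thus lay inside the pluripotent range, and its difference was 0.32 ± 0.14 (limma, adjusted p = 0.191).

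The polymerase and clamp genes rose by less than Mcm10. Pola1, the catalytic subunit of polymerase alpha, rose by 1.27 ± 0.25 and Pole, that of polymerase epsilon, by 1.45 ± 0.11, although Pola1 did not pass against either MEF array alone (limma, adjusted p = 0.0847 with FBS and 0.071 with iCD1). Pcna, the sliding clamp, lay at 9.55 and 9.52 in MEFs, at 10.92, 10.71 and 10.97 in the KSR lines, at 10.82 in 2i and at 10.91 in ES cells. It rose by 1.33 ± 0.12 (limma, adjusted p = 0.0102), and its second probe set gave a difference of 1.36. Pcna has 2 annotated pseudogenes, and signal from near-identical copies was not separated here. The clamp loader subunits Rfc4 and Rfc3 rose by 1.28 ± 0.12 and 0.94 ± 0.12 in the KSR lines, but Rfc3 was 0.56 ± 0.16 higher in 2i and 0.50 ± 0.16 higher in ES cells without passing.

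Rpa2, a subunit of the protein that coats single-stranded DNA, lay at 6.82 and 6.62 in MEFs, at 8.91, 8.57 and 8.47 in the KSR lines, at 8.33 in 2i and at 8.19 in ES cells. It rose by 1.93 ± 0.17 in the KSR lines, by 1.61 ± 0.23 in O4-1 in 2i and by 1.47 ± 0.23 in ES cells. Fen1, the flap nuclease that processes Okazaki fragments, rose by 1.22 ± 0.15 in the KSR lines and by 1.11 ± 0.20 in 2i, and its difference of 0.94 ± 0.20 in ES cells did not pass (limma, adjusted p = 0.0665). With the FBS array alone as MEFs the KSR call of Fen1 lay at the threshold (limma, adjusted p = 0.05).

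Both measured mismatch repair members rose in all 3 comparisons with MEFs. Msh6, which encodes a protein that recognises mispaired bases, lay at 6.68 and 6.94 in MEFs (FBS, then iCD1), at 9.48, 9.08 and 9.34 in the KSR lines, at 9.20 in 2i and at 9.33 in ES cells. The gap of 2.14 between its highest MEF array and its lowest pluripotent array was the widest among the members. Msh6 rose by 2.49 ± 0.16 (limma, adjusted p = 0.0078), a 5.60-fold difference. Exo1, the exonuclease that removes the mismatched strand and also resects breaks, lay at 6.21 and 5.85 in MEFs, at 8.01, 7.88 and 7.92 in the KSR lines, at 7.83 in 2i and at 7.57 in ES cells. It rose by 1.91 ± 0.09 in the KSR lines (limma, adjusted p = 0.00659), and its ES value was the lowest pluripotent one.

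All 7 measured recombination genes rose in the KSR lines, with a median of 1.78, and 5 rose in O4-1 in 2i and 5 in ES cells. Brca1, a ubiquitin ligase subunit that promotes break resection, lay at 5.94 and 6.05 in MEFs, at 7.77, 7.42 and 8.14 in the KSR lines, at 7.72 in 2i and at 7.93 in ES cells. It rose by 1.78 ± 0.26 (limma, adjusted p = 0.0213), while its differences of 1.73 ± 0.35 in 2i and 1.94 ± 0.35 in ES cells missed the threshold (limma, adjusted p = 0.0573 and 0.0513). Its partner Bard1 rose by 2.06 ± 0.20 by the probe set used, at 5.54 and 4.89 in MEFs and between 6.98 and 7.50 in pluripotent cultures. The other 2 probe sets of Bard1 gave smaller differences of 1.32 and 1.07.

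Brca2, a central mediator of recombination, lay at 5.25 and 5.14 in MEFs, at 7.31, 6.80 and 7.69 in the KSR lines, at 6.98 in 2i and at 7.10 in ES cells. Its spread between KSR lines (SD 0.45) was the widest among the members. It rose by 2.07 ± 0.31 in the KSR lines (limma, adjusted p = 0.0229) but did not pass against the FBS array alone (limma, adjusted p = 0.0558), nor in 2i or ES cells, where it was 1.79 ± 0.42 and 1.90 ± 0.42 higher. Palb2, which bridges BRCA1 and BRCA2, rose by 1.57 ± 0.16.

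Genes of recombination motors and helicases rose as well. Rad54l, a motor that acts on DNA during strand exchange, lay at 6.44 and 6.47 in MEFs, at 8.29, 8.16 and 8.25 in the KSR lines, at 8.09 in 2i and at 8.17 in ES cells, and rose by 1.78 ± 0.09 (limma, adjusted p = 0.00676). Its relative Rad54b rose by 1.62 ± 0.12 in the KSR lines, 1.81 ± 0.15 in 2i and 2.03 ± 0.15 in ES cells. Blm, the helicase that dissolves recombination intermediates, rose by 1.94 ± 0.20 in the KSR lines and by 2.23 ± 0.27 in 2i.

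Of the 4 Fanconi anaemia genes, 3 rose in the KSR lines, 2 in O4-1 in 2i and 2 in ES cells. Fancd2, which is ubiquitinated at crosslinks with its partner FANCI, lay at 5.96 and 6.01 in MEFs, at 7.75, 7.75 and 7.83 in the KSR lines, at 7.91 in 2i and at 7.53 in ES cells. It rose by 1.79 ± 0.09 (limma, adjusted p = 0.00659), and Fanci rose by 1.46 ± 0.16 in the KSR lines and 1.97 ± 0.21 in ES cells. Fanca, of the core ubiquitin ligase complex, rose by 0.98 ± 0.19 in the KSR lines (limma, adjusted p = 0.0389) but not against either MEF array alone (limma, adjusted p = 0.0896 with FBS and 0.0693 with iCD1).

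Fancb, a core complex gene on the X chromosome, did not share the pattern. It lay at 6.47 and 6.24 in MEFs (FBS, then iCD1), at 6.90, 6.38 and 6.32 in O4-1, O4-2 and O4-4 in KSR, at 6.03 in O4-1 in 2i and at 6.11 in ES cells. O4-1 gave both the highest value, in KSR, and the lowest, in 2i. The difference of 0.18 ± 0.23 between KSR lines and MEFs did not pass (limma, adjusted p = 0.644), and without O4-1 it was -0.0043.

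The Ku genes of end joining, Xrcc5 and Xrcc6, rose in all 3 comparisons. Xrcc5 lay at 7.96 in MEFs in FBS and 8.73 in iCD1, at 9.59, 9.64 and 9.95 in the KSR lines, at 10.03 in 2i and at 9.96 in ES cells. Its iCD1 array was 0.77 above FBS, yet below every pluripotent array. By the probe sets used, the 0.77 was the largest difference between the MEF media among the members. Xrcc5 rose by 1.38 ± 0.16 (limma, adjusted p = 0.0139) and Xrcc6, from 6.05 and 6.23 in MEFs to between 7.09 and 7.51, by 1.27 ± 0.10 (limma, adjusted p = 0.0089).

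**Figure D3:**
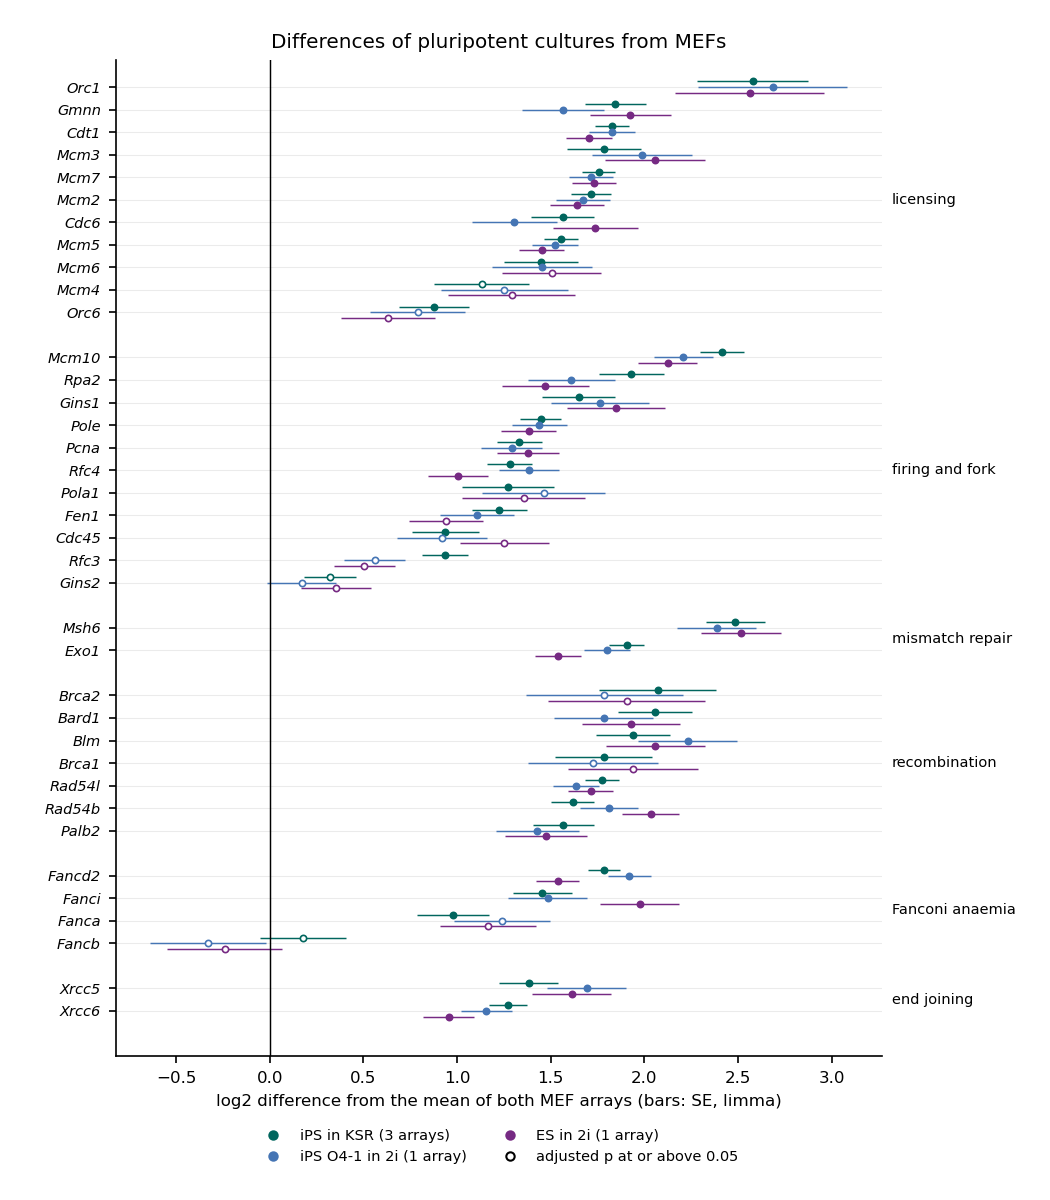
Log2 difference from the mean of both MEF arrays (horizontal axis) for each of the 37 genes in the KSR lines (3 arrays), in O4-1 in 2i and in ES cells in 2i (1 array each), with limma standard errors as bars. Filled symbols passed an adjusted p of 0.05: 34, 27 and 25 genes; Gins2 and Fancb lie nearest to 0.

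The pluripotent cultures were also set against each other. ES cells in 2i differ from the KSR lines in both cell source and medium, which cannot be told apart in that comparison. Neither O4-1 in 2i nor ES cells in 2i had any member past the threshold against the KSR lines (limma), and 0% of all genes passed. At an unadjusted p under 0.05 there were 0 and 1 members and 1339 and 1746 genes. The 1 member was Exo1, which was 0.37 ± 0.12 lower in ES cells (limma, adjusted p = 0.571). Fanci was 0.52 ± 0.20 and Rad54b 0.41 ± 0.15 higher in ES cells, and Rpa2 0.46 ± 0.22 and Rfc3 0.43 ± 0.15 lower, none of which passed. With 1 array against 3, differences of this size could not be separated from the spread between lines.

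Line O4-1 was measured in both media, on 1 array each, so medium and culture cannot be told apart. In O4-1 the 2i array was lower than the KSR array for 24 of 37 members, where 46.2% of all genes were lower, and the median difference was -0.08. No member was 2-fold apart, where 1.43% of all genes were, and the widest differences were those of Fancb (-0.87), Rpa2 (-0.58) and Rfc3 (-0.48). Between ES cells and O4-1, both in 2i, 19 members were higher in ES cells and 18 lower, with a median of 0.02. These are comparisons of 1 array with 1, without a test. Fibroblast markers also differed between the O4-1 arrays, with 11 of 12 lower in 2i, a median difference of -0.53 and list means of 6.41 in KSR and 5.82 in 2i, and their part in the result was not tested.

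Among the KSR lines, O4-2 was the lowest for 25 of 37 members, O4-1 for 6 and O4-4 for 6, whereas O4-2 was the lowest of the 3 for 33.3% of all genes. It was lowest for 8 of 11 licensing, 8 of 11 fork and 6 of 7 recombination genes. The median difference of O4-2 from O4-1 was -0.24, and that of O4-4 from O4-1 was 0.06. O4-2 was still above both MEF arrays for every member except Fancb, and the share of all genes for which this held was not counted. The SD between KSR lines had a median of 0.20 for the members and 0.16 for all genes. Of 10 pluripotency markers 5 were also lowest in O4-2, with list means of 10.00, 9.70 and 10.03 in O4-1, O4-2 and O4-4, and their part in the lower values of O4-2 was not tested.

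Between the MEF media 25 of 37 members were lower in iCD1 than in FBS, where 53.0% of all genes were lower, with a median of -0.14 against -0.02 for all genes. Of the licensing genes 10 of 11 were lower in iCD1, with a median of -0.34, and of the fork genes 8 of 11, with a median of -0.06. Cdc6 (-0.69), Bard1 (-0.65) and Xrcc5 (0.77) differed by more than 0.5. Another probe set of Bard1, not the one used, lay at 5.88 in FBS and 4.89 in iCD1, wider apart than any of these. No member was 2-fold apart, where 2.70% of all genes were. The iCD1 array was the lowest of the 7 for 24 members and the FBS array for 12, where 24.7% and 15.5% of all genes were lowest there. That a MEF array is lowest follows from the members being higher in pluripotent cultures. Fibroblast markers also differed between these arrays, with a mean over 12 genes of 8.95 in FBS and 9.74 in iCD1. Of these 7 were higher in iCD1, led by Lum (3.87) and Dcn (2.83), and 5 were lower, among them Pdgfrb (-0.69) and Thy1 (-0.65). Of 6 macrophage markers 4 were higher in iCD1, led by Lyz2 (1.85), with a list median of 0.30. The other 2, Csf1r (-0.50) and Ptprc (-0.31), were lower in iCD1. The part of the fibroblast and macrophage markers in the result was not tested.

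**Figure D4:**
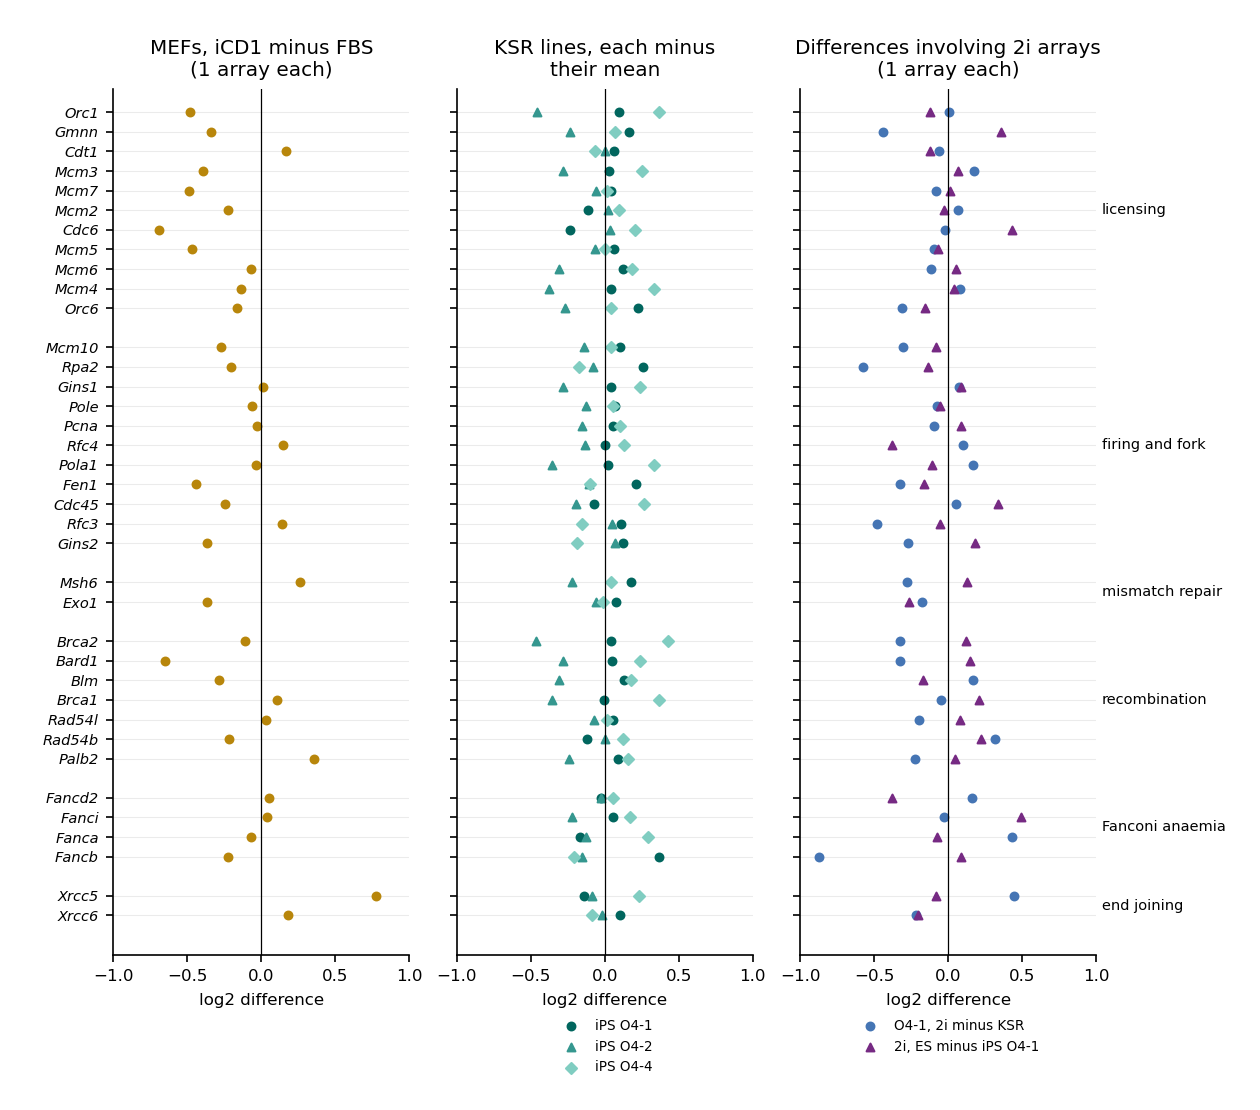
Log2 differences of the 37 genes within a cell type: MEFs in iCD1 minus FBS (left), each KSR line minus the mean of the 3 lines (middle), and, for 2i, O4-1 in 2i minus O4-1 in KSR together with ES cells minus O4-1, both in 2i (right). All points lie within 1 log2 unit, O4-2 (triangles, middle) is lowest in 25 rows and 10 of 11 licensing genes lie left of 0 in the MEF panel.

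The rest of each pathway was read from lists of other genes, chosen like the members with earlier results of these data known. Of 41 other replication genes 29 rose in the KSR lines and 0 fell, with a median of 1.03. Ticrr, which brings CDC45 to origins, rose by 2.44 ± 0.44, the nuclease gene Dna2 by 2.15 ± 0.28 and the origin recognition gene Orc5 by 1.75 ± 0.21 (limma, adjusted p from 0.0153 to 0.0327). At the other end of the list Rrm1, the large subunit of ribonucleotide reductase, lay at 10.01 and 9.84 in MEFs and between 9.48 and 9.77 in pluripotent cultures, a difference of -0.35 ± 0.14 that did not pass. Thymidine kinase Tk1 differed by 0.07 ± 0.14 and Pole3, an accessory subunit of polymerase epsilon, by -0.03 ± 0.17.

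Of 4 other mismatch repair genes 3 rose, Msh3 by 1.41 ± 0.10, Pms1 by 1.31 ± 0.13 and Pms2 by 0.71 ± 0.09, and Mlh3 was 1.01 ± 0.29 higher without passing. Of 25 other recombination and Fanconi genes 8 rose and 0 fell, with a median of 0.61. The largest difference of this list was 1.71, that of Fancm, which varied widely between the KSR lines (SD 0.74). Fancm lay at 5.66 and 5.70 in MEFs and at 7.39, 6.65 and 8.13 in O4-1, O4-2 and O4-4. Fancl, the ligase subunit of the Fanconi core complex, rose by 1.47 ± 0.25 and Eme1, a subunit of a junction nuclease, by 1.34 ± 0.15. Mus81, the partner of EME1, differed by -0.30 ± 0.19. Among 5 other end joining genes Prkdc, the kinase recruited by Ku, rose by 1.17 ± 0.16, and the remaining 4 lay between -0.55 and 0.57 without passing. Of 10 checkpoint genes 8 rose, among them the kinase genes Chek2 (2.11 ± 0.22) and Chek1 (1.82 ± 0.20). The median over members was 1.57, but since the members were chosen with results known, no test between the lists is given.

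Regulators and mitotic genes of the cycle were read as further lists. Of 12 E2F and pocket protein genes, E2f4 rose by 1.25 ± 0.13 (limma, adjusted p = 0.0118) and Rbl2, the pocket protein p130, fell by 1.14 ± 0.09 (limma, adjusted p = 0.00901). Both proteins are known from the complex that represses cycle genes in resting cells. Rbl2 lay at 6.41 and 6.49 in MEFs and between 5.26 and 5.87 in pluripotent cultures, so the groups did not overlap. The other 10 did not pass, and the median was 0.19. Of 15 mitosis genes 6 rose, with a median of 0.60 and Bub1 the highest at 1.13 ± 0.12. Mki67, the proliferation marker Ki-67, lay at 8.46 and 8.32 in MEFs and between 7.34 and 7.96 in pluripotent cultures, a difference of -0.64 ± 0.15 (limma, adjusted p = 0.0591).

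**Figure D5:**
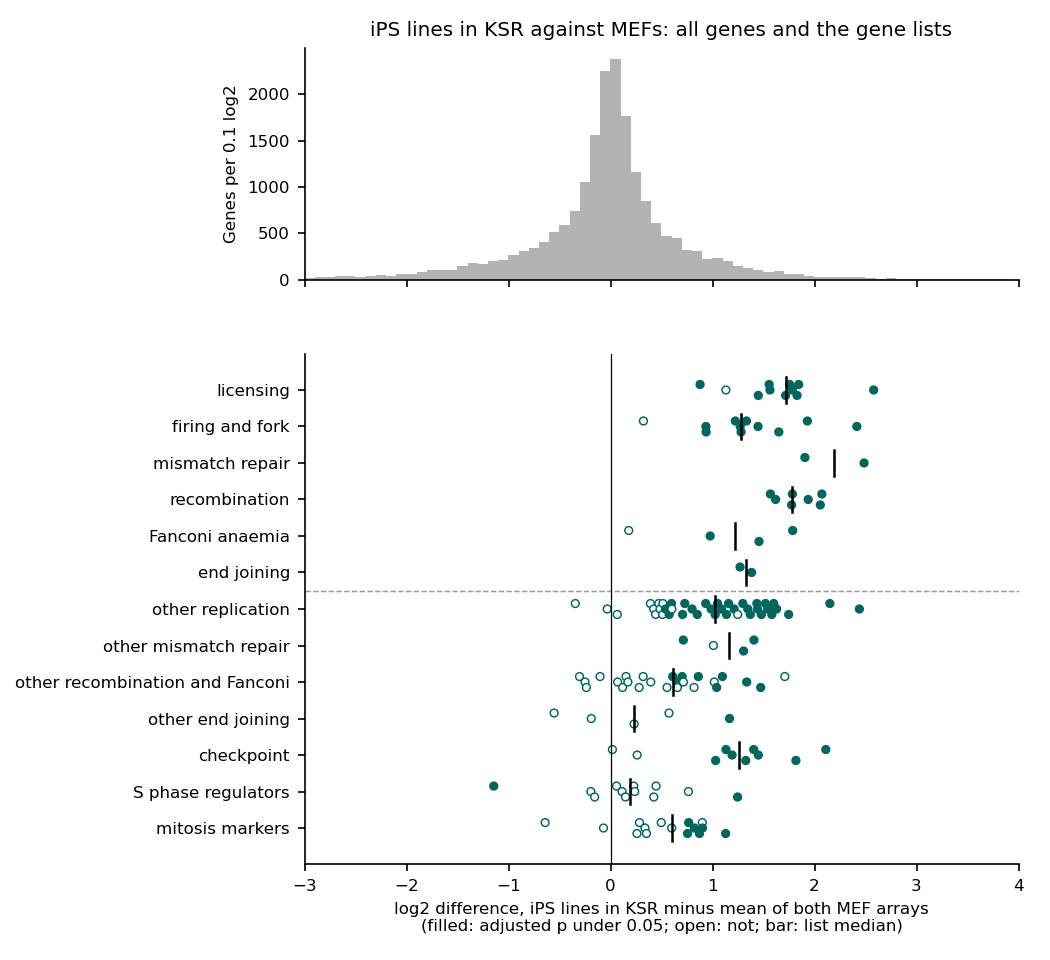
Top, the number of genes per 0.1 log2 of difference between KSR lines and the MEF mean over all 19938 genes (110 genes lie below and 45 above the axis shown); bottom, the same difference for each gene of the 6 member classes (above the dashed line) and of 7 other lists, filled where limma's adjusted p was under 0.05, with bars at list medians. Medians run from 1.22 to 2.20 in the member classes and are 1.03 in other replication genes, 0.60 in mitosis markers and 0.19 in S phase regulators.

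Cell markers were read beside these values. All 10 pluripotency markers rose in the KSR lines, with a mean over the list of 4.10 on both MEF arrays and 9.70 to 10.18 on the pluripotent arrays. The mean of the KSR lines was below the mean of both MEF arrays for all 12 fibroblast markers, and 9 fell. List means were 8.95 and 9.74 in MEFs and 5.82 to 6.89 in pluripotent cultures. Against MEFs in FBS alone not every line was lower. Dcn lay at 6.78 there and at 6.63, 6.99 and 7.54 in O4-1, O4-2 and O4-4. Lum lay at 6.06 in FBS and at 5.94, 5.37 and 6.87 in these lines. In iCD1 Dcn and Lum lay at 9.61 and 9.94. Col1a1 was still at 10.32 in O4-4 and 9.87 in ES cells, against 9.17 in O4-1 and 9.21 in O4-2 in KSR and 8.90 in O4-1 in 2i. Other fibroblast markers went the other way, and Thy1 lay at 6.17, 5.96 and 5.70 in O4-1, O4-2 and O4-4 in KSR. Among these lines O4-4 was the lowest for 4 of the 12 markers, O4-1 for 5 and O4-2 for 3. The 6 macrophage markers had list means of 4.61 and 5.02 in MEFs and 3.99 to 4.44 in pluripotent cultures, and the 4 endothelial markers 4.26 and 4.30 against 4.94 to 5.42. The endothelial markers went opposite ways in the KSR lines, since Pecam1 (3.57 ± 0.32) and Tek (1.40 ± 0.18) rose while Kdr (-1.09 ± 0.16) and Cdh5 (-0.51 ± 0.09) fell. The part of other cells in the member values was not tested.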

How the data were processed

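RNA of 7 cultures was measured on Affymetrix arrays from 100 ng of total RNA, per the labels' protocols. The authors deposited log2 expression per probe set, for which the submitters' processing notes name RMA and Partek, without versions or settings. Array medians lay between 4.97 and 5.03, and values were used as deposited. Signal over background is unknown, so low values have no floor, and the number of arrays limits the precision.

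Groups came from titles and growth conditions. Other label fields conflict with them: the description calls all samples iPS cells early after infection, the ES source is given as fibroblasts, and the iPS source names iCD1. The labels give no batch, and all pairs of arrays held different values.

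Of 28853 probe sets 23410 were in the platform annotation, 21789 with 1 gene symbol, 1621 with several and 5443 unnamed. Of those with 1 symbol 21698 matched a RefSeq gene (GRCm38.p6) and 0 symbols changed. The probe set with the highest mean over 7 arrays stood for each of 19938 genes. Pcna and Bard1 had several.

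The test was limma (version 3.58.1, R 4.3.3) with lmFit and eBayes (5 groups in 1 fit, two-sided, Benjamini-Hochberg adjustment over all genes, threshold 0.05), with 2 residual and 1.62 prior degrees of freedom and a prior SD of 0.13. The code was tested on simulated data. Errors are limma standard errors unless called SD. Comparisons of 1 array with 1 have no test and count genes at least 2-fold apart. Promoter windows came from RefSeq and were searched on both strands for 4 E2F words and CCAAT.

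All members could be named, and of the other lists the 3 largest differences each way or all genes of lists of up to 6. Members, lists and tests were chosen with earlier results of these data known. The alternatives were leaving out each KSR line, 1 MEF array alone, quantile normalization, a filter at the median mean, the mean of probe sets, a variance trend and a fit of all 5 pluripotent against both MEF arrays.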

Additional observations from a re-analysis of the deposited data

How the results depend on the processing

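The number of members past limma's threshold against MEFs was 34 in KSR lines, 27 in O4-1 in 2i and 25 in ES cells. All of these members rose, where 2415, 1245 and 1071 of all 19938 genes rose. Leaving out 1 KSR line in turn gave 0 to 24, 0 to 0 and 0 to 0, and median differences of the members in KSR of 1.53 to 1.63. Fewer residual degrees of freedom remain then, and without O4-1 or O4-2 no gene of the whole table passed (limma), with 5804 and 6924 at an unadjusted p under 0.05. In the KSR comparison without O4-4, which gave the 24, 1207 of all genes rose and 1569 fell (limma). With the FBS array alone as MEFs the counts were 28, 15 and 13, and with the iCD1 array alone 30, 24 and 18. Quantile normalization gave 35, 33 and 33 members, where 2931, 1952 and 1667 of all genes rose. It moved members lower in iCD1 than in FBS from 25 to 29. The filter at the median mean, which drops 1 member and tests fewer genes, gave 34, 32 and 32. Of the genes it kept 2599, 1677 and 1570 rose. The mean of probe sets gave 34, 27 and 26, where 2440, 1261 and 1091 of all genes rose. A variance trend gave 35, 27 and 26, where 2388, 1273 and 1051 of all genes rose. In the fit of all 5 pluripotent against both MEF arrays 35 passed, where 3113 of all genes rose. Fancb changed sign, to -0.0043 without O4-1 (0.28 without O4-4) and to -0.007 in that last fit; its adjusted p was 0.987 and 0.988 (limma), and the cause was not tested. The comparisons with KSR lines gave 0 members under each alternative run, and 0 members were 2-fold apart between MEF media. No paired analysis was possible because O4-1 is the only line shared between media, a single pair. Signal over background was not given, so limits for low probe sets such as Palb2 and Orc1 in MEFs are unknown.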
